A study of Mus musculus with 10 samples.

Results

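The transcript profile described here is that of the subventricular zone (SVZ) of wild type mice after stroke. Its members were all arrays whose genotype label is wild type: 6 of the 10 arrays of the study, from 5 of its 9 mice. The mice are called c1, c2, 2989, 2996 and 3164, as the labels name them, and c1 was measured on 2 arrays, which were averaged and counted as 1 mouse. The study as a whole set 4 mice that overexpress Tlx, an orphan nuclear receptor, against these 5. All 5 mice were BL6 animals 8 weeks old, and each had an ischemic stroke placed in the striatum on 1 side of the brain. The SVZ was cut out by laser microdissection and its amplified, biotin-labelled RNA was hybridised to Illumina bead arrays with 45281 probes. The labels give neither the sex, the hemisphere captured and the time after the stroke, nor the meaning of the mouse names. They do not say whether the repeat of c1 began from the same tissue, RNA or labelled product. No unoperated mouse is among the samples, so the profile is that of a stroked animal and not a change caused by stroke.

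The SVZ is the thin cell layer along the lateral ventricle of the brain in which neural stem cells persist into adulthood. Stem cells with astrocyte features give rise to fast-dividing transit-amplifying progenitors, and these to neuroblasts that migrate towards the olfactory bulb and, after a stroke, also towards the injured striatum. The layer is bordered by ciliated ependymal cells and the choroid plexus on the side of the ventricle, by the striatum on the other side, and by the white matter of the corpus callosum and the cortex above.

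Detection was similar across the arrays. A probe was called detected where its deposited detection p-value was under 0.05. Between 20068 and 20286 probes were detected on each wild type array, or 44.3% to 44.8% of all. The median signal before normalization was 42.4 and 40.2 on the arrays of c1, 41.5 in c2, 36.8 in 2989, 37.1 in 2996 and 40.7 in 3164. In all 5 mice, and on both arrays of c1, 17488 probes (38.6%) were detected, and they represented 9975 named genes. On none of the 6 arrays were 21621 probes (47.7%) detected, and the other 6172 were detected in some.

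Defining genes of the SVZ were among those reliably detected. Of 18 neural stem cell genes on the array 15 were detected in all 5 mice, among them Sox2 and Sox9, transcription factors of stem cells and astrocytes, and Gfap, an intermediate filament of both. Of 18 neuroblast genes 15 were, including Dcx, which encodes the microtubule protein doublecortin of migrating neuroblasts. The counts were 6 of 8 for transit-amplifying progenitors, including Egfr and Dlx2, 20 of 26 for the cell cycle and 15 of 18 for ependymal cells and motile cilia. Over all probes 38.6% were detected in all 5 mice. Each gene of these and the following lists is counted by its brightest probe, so the shares are not like measures. The probes of the stem cell genes Fabp7 and Thbs4 were detected on no array.

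Genes of neighbouring tissue were detected about as often. All 5 mice showed 14 of 15 choroid plexus genes, 19 of 20 genes of striatal projection neurons and 17 of 20 genes of oligodendrocytes and myelin. In bulk tissue, fewer cells of a type and less RNA per cell cannot be told apart. Microglia and macrophage genes were detected in 19 of 23 cases. In contrast, of 13 genes of infiltrating leukocytes none passed in all 5 mice and 11 were detected on no array, among them Ptprc (the pan-leukocyte antigen CD45), Cd3e (a T cell receptor subunit), Ms4a1 (a B cell antigen) and Mpo (neutrophil myeloperoxidase). The remaining 2 were Cd4, near background throughout, and S100a8, a neutrophil calcium-binding protein. The log2 signal of S100a8 was 6.25 in c1, 4.53 in c2, 4.36 in 2989, 4.32 in 2996 and 4.45 in 3164, so c1 alone stood clear of background. The inflammatory cytokine genes Il6 and Tnf and the chemokine gene Ccl2 were not detected on any of the 6 arrays, and Il1b passed on 1 array of c1 only. A probe that is not detected shows only that its signal was within that of the negative controls.

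Sex-linked genes were dim throughout. The Y-linked genes Eif2s3y, at 4.71 in c1, 4.84 in c2, 4.76 in 2989, 5.10 in 2996 and 4.92 in 3164, and Uty, at 4.65, 4.64, 4.78, 4.88 and 4.75, passed detection in all 5 mice, but near background. Xist, which is transcribed from the inactive X chromosome of females, passed only in c1, at 4.57. These levels do not settle the sex of the mice.

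Ribosomal protein genes were the most frequent listed group among the brightest probes. Of the 25 named genes with the brightest probe, 6 encode cytosolic ribosomal proteins: Rplp1, Rpl41, Rps29, Rpl38, Rpl9 and Rps2. Eef1a1, the translation elongation factor, averaged 14.07 ± 0.04 (SD, n = 5) on the log2 scale, and Rplp1, at the top, averaged 14.36 ± 0.05 (SD, n = 5). Ckb, the creatine kinase of brain, averaged 14.24 ± 0.02 (SD, n = 5), and Atp5b, the catalytic subunit of ATP synthase, 14.04 ± 0.07 (SD, n = 5). Tuba1b and Tubb5 (tubulins), Fth1 (ferritin heavy chain), Mt1 (a metallothionein), Dbi (acyl-CoA-binding protein), Ppia (cyclophilin A) and the mitochondrial genes Atp5g3 and Mtch1 were also in this group. The brightness of different probes is not a measure of how abundant different transcripts are, and quantile normalization compresses the top of the scale. Rplp1, for example, held the maximum shared by all arrays, 14.38, in 4 mice.

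Several of the 25 mark particular cells. Ttr, the thyroxine and retinol carrier made by the choroid plexus, had log2 signals of 13.78 in c1, 13.58 in c2, 13.67 in 2989, 13.60 in 2996 and 13.72 in 3164. Arpp21, a phosphoprotein of striatal neurons, lay at 13.37, 13.29, 13.25, 13.46 and 13.50 in the same order of mice. Mbp, the myelin basic protein gene, was at 13.48, 13.34, 13.79, 13.69 and 13.20, and Cldn11, the tight junction protein of myelin, at 13.09, 13.27, 13.65, 13.42 and 13.13. Cpe, which trims neuropeptide precursors, and the amyloid precursor App and prion protein Prnp completed the neural genes. Ubb-ps is annotated as a pseudogene of ubiquitin B, and its signal may come from the parent gene, so that name is uncertain. The first gene outside the 25 was Rps12 at 13.30, against 13.31 for Tubb5, the last inside.

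The spread between mice was larger than that between the repeat arrays. Over 18646 probes detected in at least 4 of the 5 mice (10381 named genes), the median absolute log2 difference between arrays of different mice had a median of 0.169 over 14 pairs, with a range of 0.134 to 0.204. It was 0.105 between the c1 repeat arrays. In pairs of different mice 28 to 266 probes were at least 2-fold apart, against 0 in the repeat pair, where the largest difference of any probe was 0.867. The closest pair of different mice was c2 and 3164 at 0.134. Next came c2 with array 2 of c1 at 0.137, and 2989 with 2996 at 0.139. Beyond each other, 2989 and 2996 were 0.156 or more from every array.

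**Figure D1:**
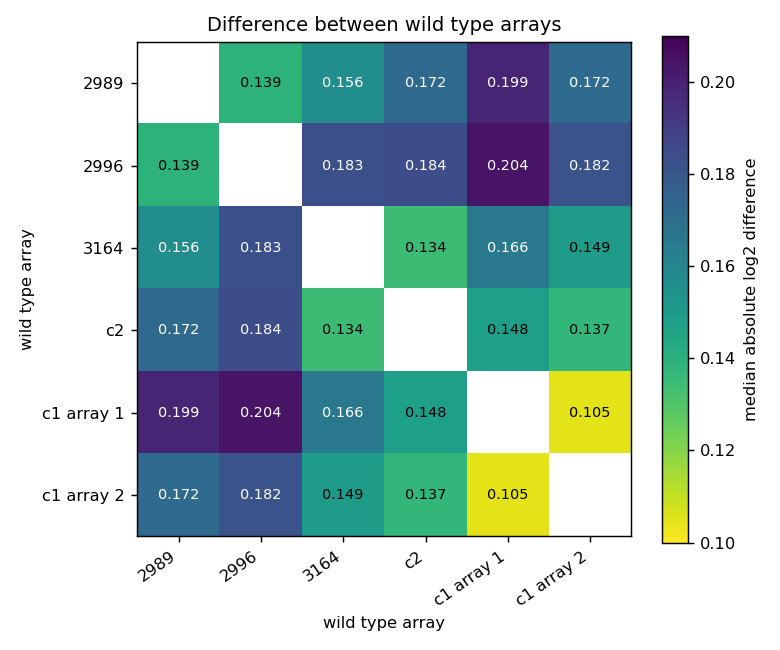
Median absolute log2 difference over 18646 probes for each pair of the 6 wild type arrays, with arrays on both axes and darker cells for larger differences. The c1 repeat arrays differed by 0.105, and pairs of different mice by 0.134 to 0.204.

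To ask which probes varied between mice by more than the repeat arrays did, a linear model with mouse as a factor was fitted across all 18646 probes with limma, and its moderated F statistic was adjusted by the Benjamini-Hochberg method. At an adjusted p-value under 0.05 it called 6776 probes (36.3%). Of these, 557 probes (2.99%) of 406 named genes also differed by at least 2-fold between the highest and the lowest mouse, 33 of them by at least 4-fold and 6 by at least 8-fold. This count depends on the scaling: it was 259 with the authors' quantile-normalized intensities, 259 with no background correction and 185 with an offset of 50. The median SD between mice was 0.15 on the log2 scale, and the median probe differed 1.29-fold between its highest and its lowest mouse. The error of this test comes from the repeat pair of 1 mouse alone, as a trend with brightness (SD of 0.0779 to 0.137), not from each probe. The p-values therefore compare these 5 samples with 1 technical repeat, and the number of arrays limits their precision. Brighter probes were called more often, 44.3% among the brightest 3730 against 17.8% among the dimmest 3729. Each gene of the lists below is represented by its brightest probe. The share of 36.3% over all probes is therefore not a like measure for the lists, and the part of brightness was not tested.

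**Figure D2:**
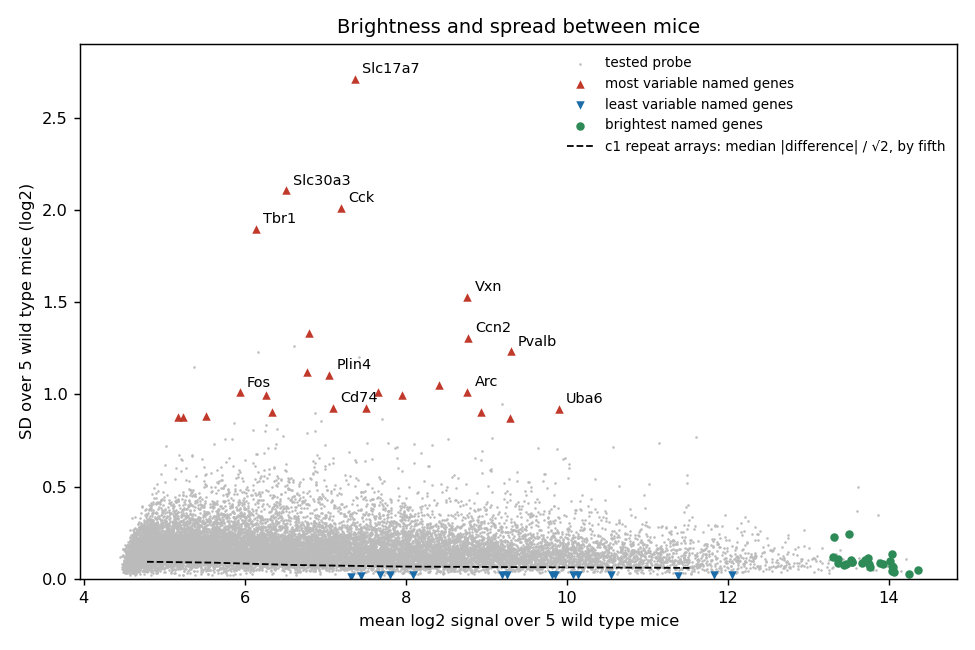
Each grey point is 1 of 18646 tested probes, placed by its mean log2 signal over the 5 mice (horizontal) and its SD between mice in log2 units (vertical). The 25 most variable named genes (red) reach an SD of 2.71 with Slc17a7, the 25 brightest (green) lie at the right with SDs of 0.0249 to 0.241, the 15 least variable (blue) lie under the dashed line, and that line gives the c1 repeat arrays.

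Genes of cortical excitatory neurons varied most. Slc17a7, which encodes the vesicular glutamate transporter VGLUT1 of cortical neurons, had a log2 signal of 4.97 in c1, 5.15 in c2, 10.37 in 2989, 10.23 in 2996 and 6.12 in 3164. The signal was thus near background in c1 and c2 and bright in 2989 and 2996, a range of 42.2-fold with an SD of 2.71 on the log2 scale, while the c1 arrays were 0.20 apart. Slc30a3, the zinc transporter of glutamatergic synaptic vesicles, had the same order, with 4.54 in c1, 4.78 in c2, 8.77 in 2989, 8.77 in 2996 and 5.70 in 3164. Tbr1, a transcription factor of deep cortical layers, was at 4.41, 4.85, 8.61, 7.74 and 5.08 in that order of mice, and it was not detected on both arrays of c1. Cck, the cholecystokinin gene, which cortical pyramidal cells and interneurons express, was at 5.15, 6.47, 9.50, 9.17 and 5.68. These 4 genes were picked for a large SD among probes past the F test, so their calls were fixed by that choice. In each of the 4, 2989 and 2996 lay above the other 3 mice, a highest pair found in 19.4% of all tested probes.

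Of the 9 genes of the glutamatergic and cortical neuron list that were tested, 7 were called, and 5 of these were 2-fold apart. The shares over all probes were 36.3% called and 2.99% called and 2-fold apart. The median SD was 0.42, against 0.15 over all probes. In 5 of the 7 called genes, against 25.2% of all called probes, 2989 and 2996 were the highest mice. They include Fezf2, a determinant of subcortically projecting neurons, with 7.89 in c1, 7.89 in c2, 9.19 in 2989, 8.66 in 2996 and 7.80 in 3164. Nrgn, the postsynaptic calmodulin-binding protein neurogranin, was at 9.31, 8.61, 9.68, 9.54 and 9.12. Camk2a, another of the 5, had a small range, at 10.68, 10.53, 10.81, 10.98 and 10.77. A dimmer called probe of Camk2a was lowest in 2996 (8.70) and highest in 3164 (9.18). Neurod2, a factor of cortical projection neurons, was tested in no model because it was detected in only 3 mice, with 4.27 in c1, 4.39 in c2, 7.43 in 2989, 7.52 in 2996 and 5.12 in 3164. Slc17a6, which encodes VGLUT2, the transporter of thalamic and other subcortical neurons, had another order: 7.42 in c1, 9.18 in c2, 7.48 in 2989, 8.03 in 2996 and 8.45 in 3164. Cux2, a factor of upper cortical layers, was highest in 2996 (7.36) and lowest in 2989 (6.74).

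Of the 25 named genes with the largest SD among called probes, 21 had 2989 and 2996 as the highest mice and 1, Lbhd2, had them as the lowest. That highest pair held for 19.4% of all tested probes, 25.2% of called probes and 27.8% of those 2-fold apart. The c1 arrays differed by at most 0.30 in any of the 25, whose ranges between mice began at 1.64. Beside Slc17a7, Slc30a3, Tbr1 and Cck, the 21 included Vxn (vexin, a regulator of neuronal differentiation), Nrn1 (neuritin, a neurite growth factor), Adcy1 (the calcium-stimulated adenylyl cyclase), Cadps2 (a dense-core vesicle priming factor) and Cpne9 (a calcium-binding copine). Ccn2, the connective tissue growth factor gene, which marks the deepest cortical layer, was at 8.05 in c1, 7.94 in c2, 10.42 in 2989, 9.94 in 2996 and 7.53 in 3164, and its other probe had almost the same range (2.79 against 2.89). Pvalb, the parvalbumin gene of fast-spiking interneurons, grouped the mice in another way, with 8.12 in c1, 9.97 in c2, 10.71 in 2989, 9.83 in 2996 and 7.88 in 3164. Lbhd2 was at 8.80, 8.21, 7.25, 6.62 and 8.89. The next gene below the 25 was Rprm, with an SD of 0.865, against 0.871 for Cadps2, the last inside.

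**Figure D3:**
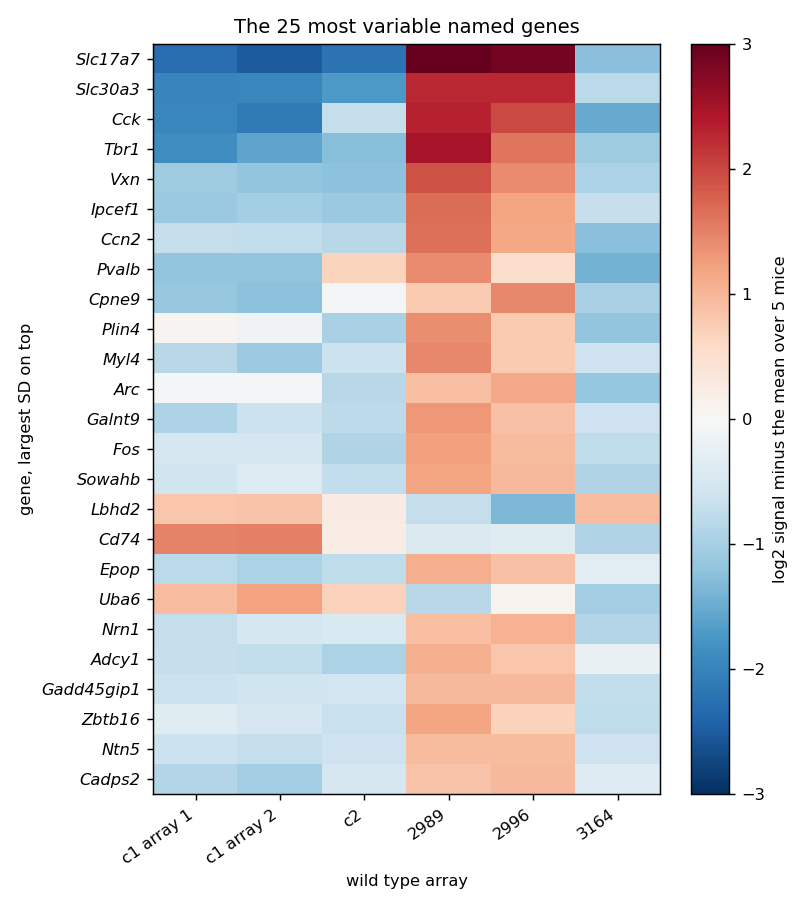
Log2 signal minus the mean over 5 mice (colour, red above and blue below the mean) of the 25 named genes with the largest SD, in rows, on each wild type array, in columns. Most rows are red in 2989 and 2996 only, Cd74 and Uba6 are red on both arrays of c1, and the 2 columns of c1 look alike.

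The counts were also taken without these 2 mice. Without 2989 and 2996, a setting chosen after seeing the data, 2457 probes (13.2%) were called and 70 were 2-fold apart. All 70 were among the 557, which was fixed in advance because leaving out mice cannot widen the range of a probe. No other pair of mice was left out, so the fall cannot be ascribed to these 2 in particular. Of the 25 most variable genes 9 then lost their call: Vxn, Ipcef1, Myl4, Galnt9, Fos, Sowahb, Gadd45gip1, Zbtb16 and Ntn5. Cd74, Uba6 and Pvalb kept SDs of 1.20, 1.12 and 1.14 over the remaining 3 mice. Slc17a7 kept its call with an SD of 0.62. With only 2996 left out, 306 probes were 2-fold apart. The same pair had the lowest median signal before normalization, 36.8 in 2989 and 37.1 in 2996, and its part in these values was not tested.

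Genes of general neuronal identity went the same way by less. Of 12 tested, 9 were called, against 36.3% of all probes, and 5 of these were highest in 2989 and 2996, against 25.2% of all called probes. Stx1a, a syntaxin of the presynaptic membrane, was at 8.32 in c1, 8.61 in c2, 10.002 in 2989, 9.79 in 2996 and 8.66 in 3164. Vsnl1, the calcium sensor visinin-like 1, was at 11.14, 11.06, 12.02, 11.67 and 11.62, and Nefm, a neurofilament subunit, at 5.87, 5.73, 7.001, 6.65 and 5.93. Among 13 tested genes of interneurons and septal neurons, 11 were called and 6 were 2-fold apart, but in different orders. The shares over all probes were 36.3% and 2.99%. Calb2, the calretinin gene, was highest in 3164 (8.88) and c2 (8.64) and lowest in 2989 (7.44). Chat, which makes acetylcholine, was at 5.69 in c1, 6.33 in c2, 6.25 in 2989, 6.74 in 2996 and 7.01 in 3164, and Zic1, a factor of septal and olfactory neurons, was highest in 3164 (7.23) and lowest in 2989 (6.08).

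Immediate early genes, which neurons transcribe within minutes of strong activity, varied with the same pair of mice. Of 20 tested, 17 were called, 8 were 2-fold apart, and in 14 of the 17 the highest mice were 2989 and 2996. Over all probes 36.3% were called, and 2.99% were called and 2-fold apart. These mice were the highest pair in 25.2% of the called probes and in 19.4% of all tested. The median SD was 0.35, against 0.15 over all probes. Arc, which encodes a postsynaptic capsid-like protein of plasticity, was at 8.72 in c1, 7.94 in c2, 9.67 in 2989, 9.89 in 2996 and 7.60 in 3164. Fos, the activity-induced partner in the AP-1 factor, was at 5.44, 5.03, 7.16, 6.90 and 5.17. The zinc finger factor Egr2 was at 5.80, 5.63, 7.12, 7.23 and 5.55, and its relative Egr1 at 10.36, 10.24, 11.29, 11.11 and 10.27. In Arc, Fos, Egr1 and Egr2 alike, 2989 and 2996 did not overlap with the other mice. Junb, Egr4, Npas4 and Dusp1 were the other 2-fold members. The exceptions were Homer1, Jund and Sik1: Homer1 was highest in 2996 only (10.29), Jund in c1 (5.78), and Sik1 was lowest in 2996 (4.97).

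Because activity-dependent transcription acts through the CArG box, bound by serum response factor, and the cyclic AMP response element, TGACGTCA (CRE), the promoters of the called genes were read for both. The 150 bases before the RefSeq start were searched on both strands. Sites further upstream and variant spellings were not searched, so a gene without a match may still have such an element. Of the 17 called genes 13 had a RefSeq promoter entry. A CArG box lay in 2 of the 13, Egr2 and Zfp36, and in 0.916% of 32851 promoters. A CRE lay in 1, Dusp1, and in 1.36% of promoters. A gene was counted if any of its listed starts had the motif, whereas the percentages count each promoter singly, so they are not like measures. The windows from RefSeq (GRCm38.p6) are shown 5′ to 3′ with the motif in capitals, for Egr2 at chr10:67537416-67537565, plus strand, for Zfp36 at chr7:28379229-28379378, minus strand and for Dusp1 at chr17:26508473-26508622, minus strand.
Egr2: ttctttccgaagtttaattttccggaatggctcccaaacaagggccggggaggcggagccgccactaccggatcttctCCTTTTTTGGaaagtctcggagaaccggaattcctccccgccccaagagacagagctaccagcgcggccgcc
Zfp36: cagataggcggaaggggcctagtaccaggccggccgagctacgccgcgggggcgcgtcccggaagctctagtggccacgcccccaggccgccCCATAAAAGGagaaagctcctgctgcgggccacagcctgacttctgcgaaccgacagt
Dusp1: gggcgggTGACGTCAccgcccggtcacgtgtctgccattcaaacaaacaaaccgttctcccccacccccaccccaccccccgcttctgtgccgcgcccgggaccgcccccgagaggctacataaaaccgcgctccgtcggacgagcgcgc
In Egr2 the box begins 72 bases before the start, in Zfp36 58 bases and in Dusp1 the element begins 143 bases before it, and 4 of 5 listed starts of Egr2 have the box in their window. Zfp36, which encodes the mRNA-destabilising protein tristetraprolin, was at 7.15 in c1, 7.001 in c2, 7.44 in 2989, 7.32 in 2996 and 6.86 in 3164. Dusp1, a phosphatase that switches off MAP kinases, was at 8.06, 8.32, 9.38, 9.05 and 8.42. A match of letters is a description of the sequence and shows no binding.

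Glucocorticoid-responsive genes, which steroid hormone induces through its nuclear receptor, had a related order. Of 14 tested, 11 were called and 3 were 2-fold apart. In 6 of the 11 the highest mice were 2989 and 2996, and 9 were lowest in 3164. Over all probes 36.3% were called, and 2.99% were called and 2-fold apart. Of the called probes 25.2% had that highest pair and 17.1% were lowest in 3164. Tsc22d3, which encodes the leucine zipper protein GILZ, was at 8.57 in c1, 8.88 in c2, 9.71 in 2989, 9.68 in 2996 and 8.47 in 3164. Plin4, a lipid droplet coat protein, was at 7.04, 6.08, 8.44, 7.84 and 5.86, and the transcription factor gene Zbtb16 at 4.80, 4.56, 6.40, 5.92 and 4.47. Sgk1, a serum and glucocorticoid-induced kinase, had a smaller range, from 12.24 in 2996 to 11.62 in 3164. The hormone-responsive Fkbp5, an immunophilin that tempers the receptor, was at 6.74, 6.47, 7.09, 7.15 and 6.41.

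Clock genes also differed, with 11 of 14 called, against 36.3% of all probes. Dbp, an output gene of the circadian clock, was at 10.98 in c1, 11.44 in c2, 10.36 in 2989, 10.68 in 2996 and 11.35 in 3164. Per3, a period gene, followed the same order at the top, with 6.02 in c2 and 5.93 in 3164 against 5.17 in 2996. Arntl, the BMAL1 gene, chosen after its values were seen, was at 4.94, 4.84, 5.49, 5.28 and 4.86, so that it was highest in the mice where Dbp was lowest. The labels give no time of day at which tissue was taken, and its part in these values was not tested.

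MHC class II genes were highest in c1. Cd74, the invariant chain of MHC class II, had log2 signals of 8.59 in c1, 7.31 in c2, 6.65 in 2989, 6.73 in 2996 and 6.18 in 3164, a 5.30-fold range, with 8.57 and 8.61 on the c1 arrays. The class II chains H2-Ab1, at 8.25, 7.32, 6.40, 6.73 and 6.08, and H2-Eb1, at 7.40, 6.33, 5.62, 5.84 and 5.34, had c1 highest, c2 next and 3164 lowest as well. All 3 were called, and the second probe of Cd74 and both further probes of H2-Ab1 also had c1 as the highest mouse. H2-Aa was not detected on any array, nor was Ciita, the class II transactivator. Among the other tested members of the antigen presentation list, 4 of 8 were called (against 36.3% of all probes), with smaller ranges. They were the class I genes H2-D1 and H2-T23, B2m, their light chain, and Psmb9, an immunoproteasome subunit. Of these, H2-D1 and Psmb9 were highest in c1, H2-T23 in 2989 and B2m in 2996.

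MHC promoters carry a Y box, CTGATTGG, bound by the factor NF-Y. Searched on both strands in the same window, it lay in 4 of the 5 called antigen presentation genes with a RefSeq promoter entry (H2-D1, H2-Eb1, H2-T23 and Psmb9) and in 3.16% of all promoters. Here too a gene was counted by any of its listed starts, and the percentage by single promoters. The promoter of H2-Eb1 (GRCm38.p6, chr17:34305717-34305866, plus strand) is shown 5′ to 3′ with the box in capitals, since its gene varied most among these 4.
H2-Eb1: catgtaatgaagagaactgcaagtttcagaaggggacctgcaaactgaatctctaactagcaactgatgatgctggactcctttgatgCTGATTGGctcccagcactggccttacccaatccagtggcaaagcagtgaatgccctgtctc
The box begins 62 bases before the start. The list's mean level, as log2 signal centred on the 5 mice, was 0.45 in c1, 0.05 in c2, -0.06 in 2989, -0.11 in 2996 and -0.32 in 3164, and 0.46 and 0.44 on the c1 arrays. Most of it came from Cd74, H2-Ab1 and H2-Eb1, whose mean was 1.36 in c1, 0.27 in c2, -0.50 in 2989, -0.29 in 2996 and -0.85 in 3164. The other 8 tested members, a split made after their values were seen, were at 0.11, -0.03, 0.10, -0.05 and -0.12 in that order. The microglia and macrophage list was highest in 2989 (0.17), not in c1 (-0.04). Of its genes only Lyz2, the lysozyme gene of myeloid cells, was highest in c1 among the called ones, with 8.39 in c1, 8.01 in c2, 7.97 in 2989, 7.81 in 2996 and 7.71 in 3164.

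Genes of the choroid plexus were highest in c1 and lowest in 2989. Of 14 tested, 12 were called, 10 of these were highest in c1, and all 12 were lowest in 2989. Over all probes 36.3% were called, and of these 25.6% were highest in c1 and 19.8% lowest in 2989. The list level was 0.34 in c1, 0.06 in c2, -0.31 in 2989, -0.01 in 2996 and -0.08 in 3164. Folr1, a folate receptor of this epithelium, was at 10.04 in c1, 9.64 in c2, 9.09 in 2989, 9.27 in 2996 and 9.44 in 3164. Clic6, a chloride channel protein, was at 12.59, 12.29, 11.82, 11.94 and 12.17, and the claudin gene Cldn2 at 10.33, 10.18, 9.40, 9.75 and 9.57. Ttr was not called (adjusted p = 0.281 in the limma fit). Meningeal and fibroblast genes had a level of 0.21 in c1 and -0.09 to -0.01 in the other mice, with 8 of 11 called and 6 of these highest in c1. Igfbp2, an IGF-binding protein, and Slc13a4, a sulfate transporter, were at 10.52 and 11.39 in c1, 9.94 and 11.22 in c2, 9.49 and 10.68 in 2989, 9.73 and 10.96 in 2996 and 9.79 and 10.88 in 3164. The choroid plexus and meningeal levels thus moved with the class II genes in c1, and their part in that result was not tested.

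Myelin and striatal genes separated 2989 from the rest, in opposite directions. Of 17 tested genes of oligodendrocytes and myelin 15 were called, and 14 of these were highest in 2989. The shares over all probes were 36.3% called and, of the called, 21.9% highest in 2989. The list level was -0.16 in c1, 0.01 in c2, 0.43 in 2989, -0.03 in 2996 and -0.25 in 3164. Mog, a surface protein of myelin, was at 10.15 in c1, 10.44 in c2, 10.83 in 2989, 10.21 in 2996 and 9.87 in 3164. Olig1, a factor of the oligodendrocyte lineage, was at 9.75, 9.83, 10.72, 10.25 and 9.75, and Tspan2, a tetraspanin of myelin, at 8.52, 8.86, 9.53, 8.83 and 8.75. Opalin was the called member with another order, highest in c2 (10.14). In 7 of the 15 called genes 2996 was the next highest mouse after 2989, and 25.2% of all called probes had this highest pair.

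Of 19 tested genes of striatal projection neurons 17 were called, against 36.3% of all probes. Of the 17, 16 were lowest in 2989, against 19.8% of all called probes. Their level was -0.30 in 2989, against 0.11 in c1, 0.03 in c2, 0.02 in 2996 and 0.14 in 3164. Ranges were small, with a median SD of 0.19 and no member 2-fold apart by its brightest probe. A dimmer probe of Bcl11b (2.31-fold) and one of Gng7 (2.27-fold) were, both highest in 3164 and lowest in 2996. A dimmer probe of Arpp21 was called and was highest in 2989 and 2996. It was at 9.40 in c1, 9.33 in c2, 10.005 in 2989, 9.96 in 2996 and 9.38 in 3164. Ppp1r1b, which encodes DARPP-32, the dopamine-regulated phosphatase inhibitor of these neurons, was at 12.36 in c1, 12.34 in c2, 11.98 in 2989, 12.08 in 2996 and 12.41 in 3164. Scn4b, a sodium channel subunit, was at 10.63, 10.99, 10.20, 10.59 and 10.84, and Rasd2, a striatal small GTPase, at 11.92, 12.04, 11.49, 11.91 and 12.29. The dopamine receptor genes Drd1 and Drd2 were lowest in 2989 as well, at 9.21 and 8.20, against 9.34 to 9.58 and 8.59 to 8.64 in the other mice. Cortical genes were high in 2989 and 2996 alike, whereas the striatal and myelin levels of 2996 lay among those of the other mice.

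Neurogenic genes were highest in c2. The level of transit-amplifying progenitor genes was 0.03 in c1, 0.22 in c2, -0.05 in 2989, -0.11 in 2996 and -0.08 in 3164, and all 4 called of 6 tested genes were highest in c2. Neuroblast genes had 8 of 15 called and 5 of these highest in c2, where their level was 0.19, against -0.14 to 0.04 in the other mice. Over all probes 36.3% were called, and 14.5% of the called probes were highest in c2. Dcx was at 7.61 in c1, 8.29 in c2, 7.84 in 2989, 7.77 in 2996 and 7.85 in 3164. Igfbpl1, a secreted protein of neuroblasts, was at 8.15, 8.49, 7.86, 7.78 and 8.32, and Ccnd2, the cyclin D2 of dividing progenitors, at 10.04, 10.30, 10.11, 9.75 and 9.88.

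Cell cycle genes had 10 of 20 called, near the 36.3% of all probes. Of the called genes 8 were highest in c2, against 14.5% of all called probes, with a level of 0.23 in c2 and -0.11 to -0.01 in the others. Cdc20, an activator of the anaphase-promoting complex, was at 7.24, 8.03, 7.41, 7.51 and 7.58 in the order c1, c2, 2989, 2996 and 3164. Hmgb2, a chromatin protein of dividing cells, was at 7.85, 8.57, 8.25, 8.14 and 8.49. By its brightest probe, no progenitor, neuroblast or cell cycle gene was 2-fold apart. Dimmer probes of 2 neuroblast genes were: one of Meis2 (2.37-fold) and one of Tubb2b (2.76-fold) were highest in c2, and another of Tubb2b (2.41-fold) was highest in 3164 and lowest in 2996. The neural stem cell list was nearly level, from 0.07 in c2 to -0.05 in c1, although 9 of its 16 tested genes were called. Gfap, its 2-fold member, was at 9.81 in c1, 9.77 in c2, 10.32 in 2989, 9.68 in 2996 and 9.30 in 3164.

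Most of the remaining cell type lists were closer to the background of 36.3% or had small ranges. The oligodendrocyte precursor list was wider, with a median SD of 0.23 against 0.15 over all probes. None of its genes was 2-fold apart by its brightest probe. Called were 7 of 16 ependymal genes, 8 of 11 astrocyte genes, 9 of 15 reactive astrocyte genes, 5 of 9 oligodendrocyte precursor genes, 9 of 20 microglia genes, 8 of 17 endothelial genes and 3 of 13 genes of smooth muscle and pericytes. Among stress lists, 10 of 17 heat shock genes, 7 of 17 hypoxia and glycolysis genes and 3 of 12 cytokine and chemokine genes were called. Of all these, 1 gene each of the reactive astrocyte, hypoxia and cytokine lists was 2-fold apart. Over all probes 2.99% were called and 2-fold apart.

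Erythroid genes were high in 3164 and c1 and low in c2 and 2989. Their level was 0.15 in c1, -0.23 in c2, -0.26 in 2989, 0.06 in 2996 and 0.28 in 3164. All 4 tested were called, and 3 were highest in 3164 and 1, Hbb-bt, in c1. Over all probes 36.3% were called, and 20.2% of the called probes were highest in 3164. Hbb-bs, an adult beta-globin gene, was at 12.84 in c1, 12.54 in c2, 12.51 in 2989, 12.79 in 2996 and 13.08 in 3164. The globin genes have near-identical copies, so their probes may share signal. Interferon-stimulated genes were lowest in 3164. Of 16 tested 8 were called, against 36.3% of all probes, and 7 of these were lowest in 3164, against 17.1% of all called probes. In 3164 the list level was -0.21, against -0.01 to 0.12 in the other mice. Usp18, which removes the ubiquitin-like modifier ISG15, was at 6.08, 5.87, 6.33, 5.89 and 5.28, and Isg15 itself at 5.46, 5.63, 5.63, 5.45 and 4.93.

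**Figure D4:**
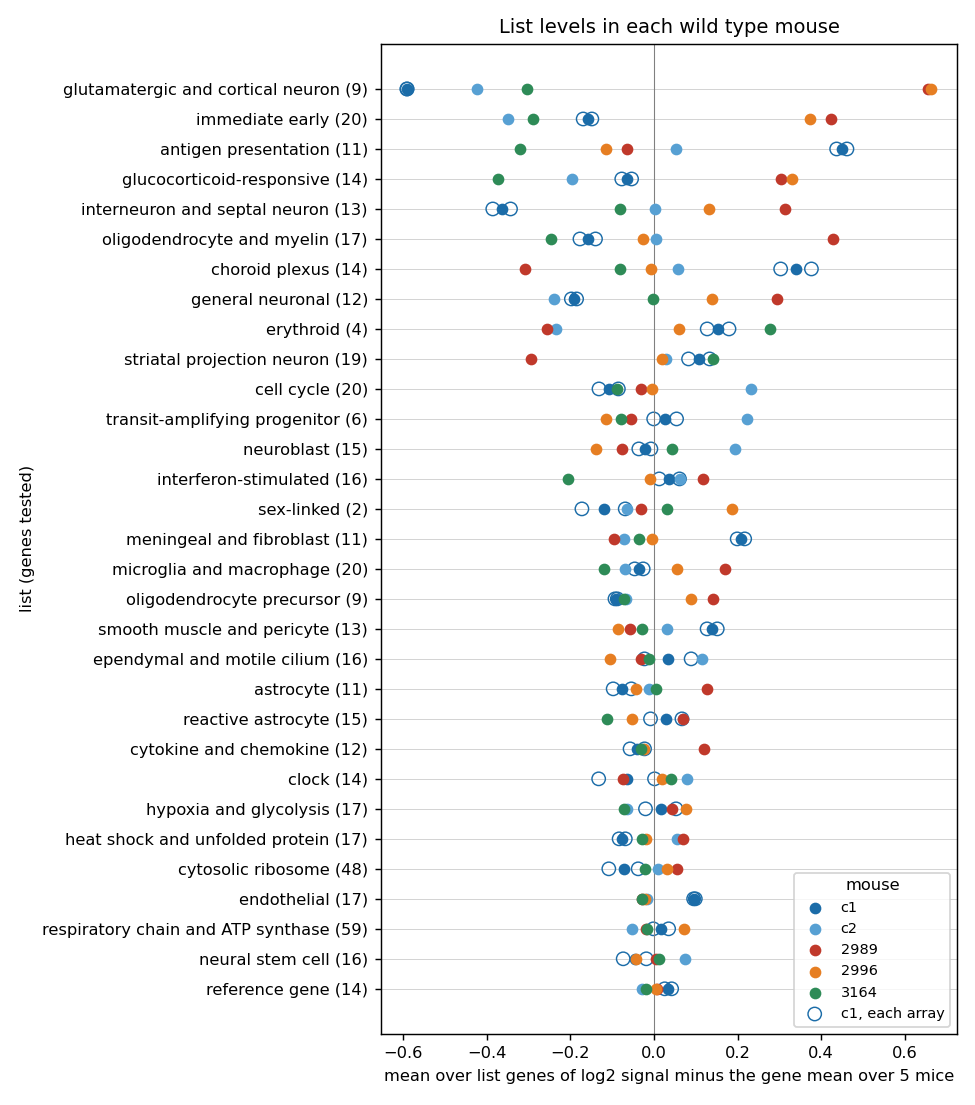
Level of each gene list in each mouse (filled points, horizontal axis: mean over the list's tested genes of log2 signal minus the gene's mean over 5 mice), with both c1 arrays as open circles and lists ordered by their range. The glutamatergic and cortical list spans -0.59 in c1 to 0.66 in 2989 and 2996, and the reference gene list -0.03 to 0.03.

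Another set of 2-fold probes was highest in 3164 and lowest in 2996. This order held for 162 of the 557 probes (29.1%), against 7.78% of all tested probes, and 2996 was the lowest mouse in 271 of the 557 (48.7%). In this set different probes of 1 gene often disagreed. Of its 111 probes whose gene had another tested probe, 39 (35.1%) had only flat partners, with a range under 0.5, and 34 (30.6%) had a partner that was 2-fold apart too. Where 2989 and 2996 were the highest mice, 2 of 54 (3.7%) had only flat partners and 33 (61.1%) had a 2-fold one. Of the 136 remaining 2-fold probes with another tested probe, 32 (23.5%) had only flat partners and 49 (36%) had a 2-fold one. Disagreement was thus not confined to the set highest in 3164 and lowest in 2996, though flat partners were most frequent there. The median range of the brightest other probe was 0.46 in that set and 0.70 in the remaining probes. Where 2989 and 2996 were highest it was 1.08.

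Eef1a2, the elongation factor of neurons and muscle, shows this disagreement. One probe was at 8.62 in c1, 8.34 in c2, 8.23 in 2989, 7.03 in 2996 and 8.74 in 3164, while its brightest probe was at 11.51, 11.44, 11.61, 11.58 and 11.55. Pfkm, a phosphofructokinase, had a probe at 7.06, 7.20, 7.05, 5.80 and 7.51 and another at 11.17, 11.14, 11.19, 11.04 and 11.32. Actb, the beta-actin gene, had its brightest probe at 12.59 in 2996 and 13.29 in 3164, and a second at 10.30 in 2996 and 12.32 in 3164. Mbp had its brightest probe at 13.69 in 2996, the mouse in which a second probe was lowest, at 8.67, against 9.93 to 10.39 in the others. Further Mbp probes were lowest in 2996 as well, at 6.58 and 4.54. The Mbp probes lowest in 2996 were highest in 2989, so they lie outside the set highest in 3164. Of the 111 probes, 87 were dimmer than the brightest other probe of their gene. Probe positions along the transcripts are not given in the sources used here, and the cause was not tested. A single probe with only flat partners does not show that its gene varied.

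**Figure D5:**
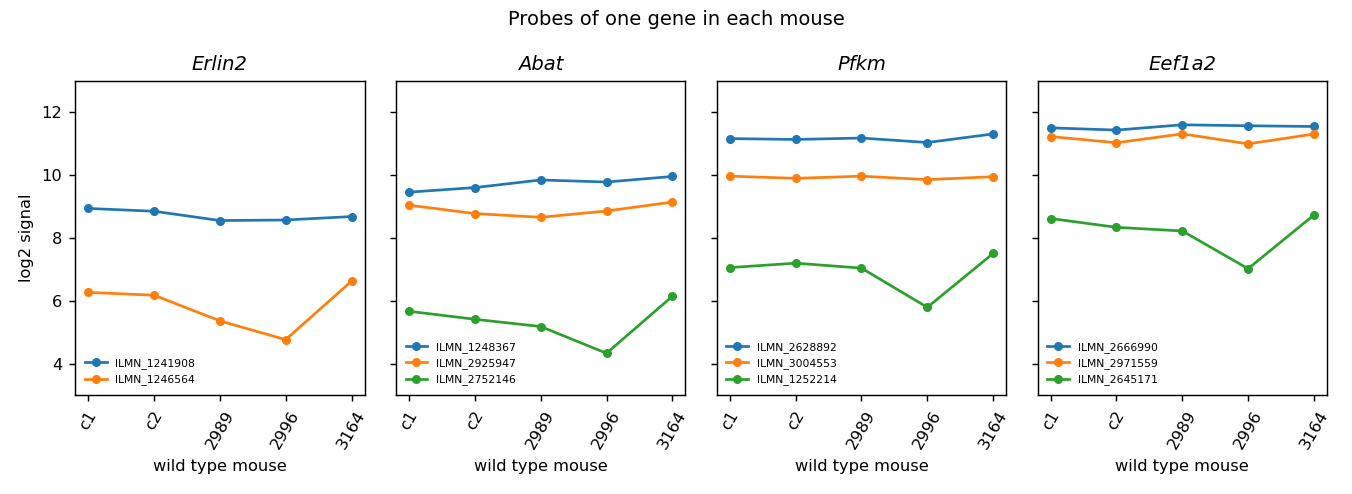
Log2 signal (vertical) of every tested probe of Erlin2, Abat, Pfkm and Eef1a2 in the 5 mice (horizontal), 1 line per probe. These are the 4 largest ranges among probes that were highest in 3164 and lowest in 2996 while their brighter partners were flat: in each gene the dim probe drops in 2996, to 4.77, 4.34, 5.80 and 7.03, and the brighter ones range over at most 0.50.

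At the other end, 15 named genes of medium to high brightness had SDs of 0.0118 to 0.0229 between mice, so that the highest and lowest mouse differed by 1.02-fold to 1.04-fold. In 12 of the 15 this range was smaller than the difference between the c1 arrays, which was 0.03 to 0.26, so the order of the mice in these genes has no meaning. They were Cep95 (a centrosomal protein), Idh3g (a subunit of isocitrate dehydrogenase), Mettl14 (part of the RNA methyltransferase that writes m6A), Ppp2ca (the catalytic subunit of protein phosphatase 2A), Trio (a guanine exchange factor), Sar1a (the GTPase of COPII vesicles) and Strap. The others were Anapc5 (of the anaphase-promoting complex), Rpf1, Slc35e1, Rasgef1a, Psme1 (a proteasome activator), Atg101 (of the autophagy initiation complex), Sod1 (superoxide dismutase) and Oaz1-ps, which is annotated as a pseudogene and is uncertain. Cep95, for example, was at 7.32 in c1, 7.32 in c2, 7.31 in 2989, 7.33 in 2996 and 7.34 in 3164. None of the 15 was called, but they were picked for a small spread.

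Housekeeping groups were the most even lists. Of 59 tested genes of the respiratory chain and ATP synthase 11 were called (18.6%), with a median SD of 0.09, and of 48 cytosolic ribosomal protein genes 11 were called (22.9%), with a median SD of 0.10. The share called over all probes was 36.3%. Of the 11 called ribosomal genes 8 had 2989 and 2996 as the highest mice and 8 were lowest in c1. Over all called probes these shares were 25.2% and 21.1%. Rpl39, for example, was at 10.49 in c1, 10.65 in c2, 11.02 in 2989, 10.88 in 2996 and 10.58 in 3164. The widest called member, Rpl7a, had another order, highest in 3164 and lowest in 2996, with 8.37 in c1, 8.43 in c2, 8.53 in 2989, 7.59 in 2996 and 8.54 in 3164. Ribosomal protein genes have many processed copies, so their probes may share signal.

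Genes in use as references were not all even. Of 14 tested, 5 were called (35.7%), against 36.3% of all probes. They were Actb (SD 0.27), Tfrc, the transferrin receptor gene (0.21), Gusb, a lysosomal glucuronidase (0.19), Hprt, a purine salvage enzyme (0.16), and B2m (0.14). Hprt was at 11.75 in c1, against 11.31 to 11.49 in the other mice. Not called were Eef1a1 (SD 0.04), Psmc4, a proteasome ATPase (0.05), Pgk1, a glycolytic kinase (0.06), Gapdh (0.07), Ppia (0.09) and Tbp, the TATA-binding protein gene (0.09), among others. The brightest probes resembled them, since 23 of the 25 were not called and the other 2 were the myelin genes Mbp and Cldn11.

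The spread of the 557 probes was also measured in the 4 Tlx overexpressing mice, which had no part in choosing them. Their median SD was 0.48 in the wild type mice that chose them and 0.22 in the Tlx overexpressing mice, where that over all tested probes was 0.13. A range of 2-fold or more among the Tlx overexpressing mice was found for 54 of the 557 (9.69%), against 1% of all tested probes. Among the 25 most variable genes the SD in those mice ran from 0.07 for Cd74 to 0.88 for Slc30a3, and it was 0.73 for Slc17a7, 0.74 for Cck and 0.68 for Pvalb. For Ccn2 the SD was 1.31 in the wild type mice and 0.10 in the Tlx overexpressing mice. For Arc it was 1.02 in the wild type mice and 0.22 in the Tlx overexpressing mice, and for Tbr1 it was 1.90 and 0.83 in that order. Spread in the Tlx overexpressing mice thus varied from gene to gene, and its difference from that in the wild type mice was not tested.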

How the data were processed

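The authors deposited 2 tables of probe intensity. Their table called non-normalized holds intensities with 1 median and 1 maximum on all arrays (medians of 40.7 and maxima of 21362.6), so it was taken as quantile-normalized. The other deposited table holds intensity with different medians and was used as the signal before normalization. The deposited detection p-value of each probe, beside the intensities per the file headers, was used as given. The scanner software and background treatment are not given in the sources used here.

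These deposited signals of all 10 arrays went through neqc of limma 3.58.1 in R 4.3.3, which estimates the negative controls by way of the detection p-values, subtracts background by normexp, adds 16, equalises quantiles and returns log2 signals. The c1 arrays were averaged for levels and SDs. The test was lmFit with mouse as a factor of 5 levels and eBayes with a trend, giving a moderated F with 1 residual degree of freedom per probe and Benjamini-Hochberg adjustment at 0.05 over 18646 probes. Every adjusted p is from this model. The estimated prior degrees of freedom were infinite, so the error used is the trend alone. Arrays of the same design with 18646 probes were also simulated, with 50 probes changed at each range between mice. Called were 36% at a range of 0.5, 98% at 1 and 100% at 1.5 and 2, as were 5 of 18446 unchanged probes. The simulated noise was drawn from the same trend that the test assumes. The simulation therefore cannot show whether an error from 1 repeat pair holds for the other mice.

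Of 45281 probes 34885 had 1 gene symbol in the platform annotation, 18 several and 10378 none, and 34818 matched the RefSeq table of GRCm38.p6, which updated the symbols. Promoters are RefSeq entries of that build. A list gene is represented by its brightest probe, and its level is the mean of centred log2 signals.

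Members and lists were chosen with earlier results of these data known. The genes named by rule are the 25 brightest, the 25 with the largest SD among called probes, the 15 with the smallest SD among probes detected in all 5 mice with a mean from 6.78 to 12.3 (the median and the 99th percentile), and from each list up to 3 called members with the largest SD and the 2 brightest, skipping unnamed clones. Other list members are named to fill out a group and were chosen after their values were seen, as were the probes shown to disagree. Alternatives covered the background step, offset, normalization, filters, eBayes settings and leaving out mice. No contrast between genotypes was made.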

Additional observations from a re-analysis of the deposited data

Results flagged for a closer look

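A value was singled out where, over the 5 mice, the gap between an extreme mouse and its nearest neighbour exceeded the 95% critical value of Dixon's test (0.71 of the whole range). Of 217 sets of values examined (185 genes, 31 lists and the number of probes detected), 10 met it (4.61%), and chance gives about 5%, so the number of such values does not stand out.

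Among genes, S100a8 was at 6.248 in c1 with the next mouse at 4.526, and this probe was detected in only 2 mice. Myh11, a smooth muscle myosin gene, was at 5.774 in c1, with the next mouse at 5.43. Isg15 was at 4.93 in 3164, with the next mouse at 5.447, and Rpl7a at 7.589 in 2996, with the next at 8.372. Dnajb1, a heat shock co-chaperone gene, was at 10.69 in c2 with the next at 10.57 and was not called by the F test. Rpl41 was at 14.16 in 2989 with the next at 14.04, within the difference of 0.17 between the c1 arrays. Rplp1 was at 14.27 in 3164, while the other mice shared the maximum of 14.38 that quantile normalization gives to every array.

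Among lists, the striatal projection neuron level was -0.2953 in 2989 with the next mouse at 0.01992. The endothelial level was 0.09669 in c1 with the next at -0.0172, and the cytokine and chemokine level was 0.1205 in 2989 with the next at -0.02343.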

How the results depend on the processing

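Counts of large differences depended on the scaling (offset, background step and normalization together), and the cause was not tested. The number of probes called and at least 2-fold apart (557) was 259 with the authors' quantile-normalized intensities, 259 without background correction and 185 with an offset of 50. The median difference between arrays of different mice (0.1687) was 0.1314, 0.1304 and 0.1145 in these settings and 0.07568 without a filter on dim probes. Without that filter 3828 probes were called, against 6776. Leaving out 1 mouse at a time gave 306 to 493 probes 2-fold apart, lowest without 2996, 5087 to 6329 called probes, differences of 0.1561 to 0.1722 and 17603 to 17914 detected probes. Without both 2989 and 2996, added after seeing the data, 2457 were called and 70 were 2-fold apart. The F test could not be run without c1, which supplies its error. Over the other settings the counts stayed within 1.5 times, and 19 to 25 of the 25 brightest genes were shared. Of 129 called probes among 183 named, 22 lost their call without the filter, 16 without the trend, 7 to 11 without 1 mouse and 52 without both 2989 and 2996, 65 in at least 1 setting. No paired analysis was possible because only 1 group of mice was analysed.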
